A study of Mus musculus with 12 samples.

Results

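The genes described here are 10 genes for RNA-binding proteins that set the splicing pattern of developing neurons: Ptbp1 and Ptbp2, Srrm4, Nova1 and Nova2, Rbfox1, Rbfox2 and Rbfox3, and Elavl3 and Elavl4. They were taken from the gene expression table by their gene names, 1 row per gene, and make up 10 of its 26190 genes. All 10 passed the count minimum and are among the 14454 genes tested. The table gives 1 value per gene and library, so levels of the genes were measured and the inclusion of single exons was not.

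In neural progenitors and in most other cells, PTBP1 binds pyrimidine-rich stretches of pre-mRNA and keeps neuronal exons out of the mRNA, including an exon that Ptbp2 mRNA needs to be stable. As neurons form, the microRNA miR-124 lowers PTBP1, PTBP2 takes over part of its targets, and SRRM4, which is restricted to the nervous system, brings in short neuronal exons. The NOVA, RBFOX and neuronal ELAVL proteins then enhance or repress further exons according to where they bind, and are known markers of neuronal differentiation.

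The study collected whole telencephalons, the primordia of the cerebral cortex and basal ganglia, from wild-type (WT) C57BL/6J mouse embryos. Poly(A) RNA was sequenced from 3 females and 3 males at embryonic day 14.5 (E14.5), a time of active neuron production, and from 3 females and 3 males at E11.5, when neural stem cells expand. Each library came from 1 embryo, with no treatment in any group. At E11.5 the same replicate number marks a female and a male of 1 of 3 mothers. At E14.5 replicates 1 and 2 came from 1 mother and replicate 3 from another. The mothers are those of the study's table of embryos, while its technical validation text gives fewer litters at E11.5.

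Gene counts summed to between 17551762 and 28355360 per library. Levels of Xist and of Y-linked genes matched the labelled sex in 12 of 12 libraries. Emx1, a transcription factor of the cortical primordium, ranged from 22.1 to 46.4 FPKM at E14.5 and from 24.6 to 29.7 FPKM at E11.5. Emx2, another such factor, was lower at E14.5, at 15.9 to 24.7 FPKM, against 45.1 to 52.7 FPKM at E11.5. Dlx2, a transcription factor of the basal ganglia primordium, ranged from 34.7 to 66.8 FPKM at E14.5 and from 28.9 to 38.7 FPKM at E11.5. FPKM is the count of read pairs per kilobase of transcript, scaled to the size of the library. The sequence IDs form 1 series per group, 4 in all, and whatever a series stands for cannot be told apart from age or sex.

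The tested comparisons used edgeR's quasi-likelihood test with p-values adjusted by the Benjamini-Hochberg procedure over all genes tested. A gene is said to be called where its adjusted p was under 0.05 and its absolute log2 ratio was above 0.5. The p-values measure the spread between embryos of 1 group, some of which share a mother. In whole tissue, fewer cells of a type and less RNA per cell cannot be told apart.

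The order of the levels differed between the ages. At E14.5 the mean FPKM of 6 libraries was 121 for Ptbp2, 79.0 for Elavl3, 66.7 for Ptbp1, 50.7 for Rbfox2, 43.7 for Elavl4, 18.5 for Nova2, 17.7 for Srrm4, 12.5 for Nova1, 7.90 for Rbfox3 and 6.16 for Rbfox1. At E11.5 it was 136 for Ptbp2, 110.1 for Ptbp1, 35.8 for Elavl3, 23.3 for Elavl4, 21.5 for Rbfox2, 10.9 for Nova2, 10.1 for Nova1, 8.87 for Srrm4, 1.44 for Rbfox3 and 0.53 for Rbfox1. Ptbp2 stood highest and Rbfox1 lowest at both ages. Ptbp1 was above Elavl3 in every E11.5 library, while at E14.5 the ranges of Elavl3 and Ptbp1 overlapped, as did those of Ptbp1 and Rbfox2 and of Rbfox2 and Elavl4. The ranges of Nova2 and Srrm4 and of Rbfox3 and Rbfox1 also overlapped at E14.5. At E11.5 neighbours in the order with overlapping ranges were Elavl4 and Rbfox2, Nova2 and Nova1, and Nova1 and Srrm4.

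**Figure D1:**
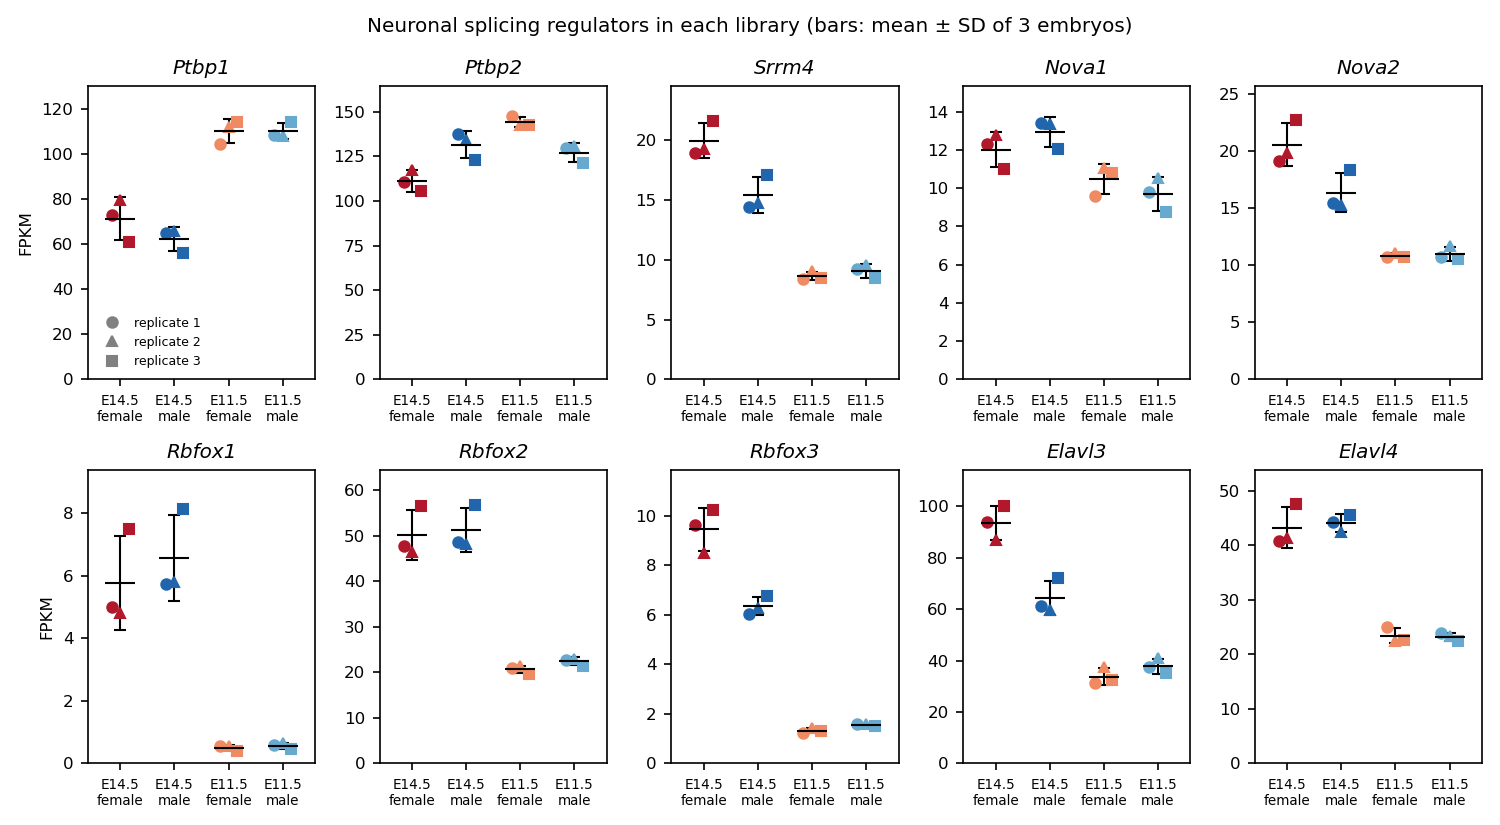
FPKM of the 10 genes (1 panel each, vertical axis from 0) in each library, grouped from left to right as E14.5 females, E14.5 males, E11.5 females and E11.5 males. Symbols are single embryos by replicate number, and the black bars are the mean ± SD of 3 embryos. Ptbp1 lies lower at E14.5 (55.9 to 79.7 FPKM) than at E11.5 (104 to 114 FPKM), while in Ptbp2 the ages overlap.

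The sequences around the start sites of 3 of these genes are shown because the genes moved between the ages, Ptbp1 down and Srrm4 and Elavl3 up. The windows run from 250 bases before to 50 bases after the start, are read 5′ to 3′ on the strand of the gene, and come from RefSeq on GRCm38.p6. They lie at chr10:79854182-79854481 (plus strand, Ptbp1), chr5:116591768-116592067 (minus strand, Srrm4) and chr9:22051974-22052273 (minus strand, Elavl3). Capitals mark the E-box motifs CAGCTG and CATCTG, of which CATCTG was searched on both strands and so also appears as CAGATG. E-boxes of this kind are bound by basic helix-loop-helix factors, the class that includes the proneural proteins.
Ptbp1: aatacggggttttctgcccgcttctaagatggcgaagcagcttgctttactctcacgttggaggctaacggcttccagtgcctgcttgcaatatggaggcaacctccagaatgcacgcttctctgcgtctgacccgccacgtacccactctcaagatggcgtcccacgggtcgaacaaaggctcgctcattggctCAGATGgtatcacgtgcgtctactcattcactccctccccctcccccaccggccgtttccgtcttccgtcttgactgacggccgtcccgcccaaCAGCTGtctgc
Srrm4: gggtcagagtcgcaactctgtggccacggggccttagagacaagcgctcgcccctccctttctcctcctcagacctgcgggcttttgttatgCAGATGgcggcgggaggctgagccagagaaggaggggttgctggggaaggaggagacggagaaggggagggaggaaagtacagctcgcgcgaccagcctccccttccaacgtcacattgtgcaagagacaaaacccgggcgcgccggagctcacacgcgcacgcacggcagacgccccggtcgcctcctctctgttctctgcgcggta
Elavl3: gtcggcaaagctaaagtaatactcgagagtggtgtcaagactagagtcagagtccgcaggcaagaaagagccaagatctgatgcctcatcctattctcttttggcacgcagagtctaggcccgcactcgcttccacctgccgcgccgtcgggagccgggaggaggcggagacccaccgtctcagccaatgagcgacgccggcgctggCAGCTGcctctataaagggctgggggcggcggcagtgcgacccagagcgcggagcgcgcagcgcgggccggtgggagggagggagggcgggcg

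The Ptbp1 window holds 1 CAGCTG and 1 CATCTG, the Srrm4 window 1 CATCTG and the Elavl3 window 1 CAGCTG. Among all 32851 windows of this length in the RefSeq table, 16.3% hold CAGCTG and 17.2% hold CATCTG. A window was found for 9 of the 10 genes (13 windows in all, Rbfox2 having none). The windows of Nova2, Ptbp2 and Rbfox3 hold neither motif. A match describes the letters only, and binding was not measured. The GC content of the 3 windows shown is 58.3% for Ptbp1, 64.3% for Srrm4 and 65.3% for Elavl3, against a median of 52.7% over all windows.

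Between the ages, 8 of the 10 genes were called. Of these, 7 were higher at E14.5 (Srrm4, Nova2, Rbfox1, Rbfox2, Rbfox3, Elavl3 and Elavl4) and Ptbp1 was lower. Over all genes tested, 43.3% were called between the ages, 24.4% higher and 19.0% lower. In 9 of the 10 genes, all but Ptbp2, the normalized counts of the 6 E14.5 libraries did not overlap those of the 6 E11.5 libraries, against 55.5% of all genes tested. The median log2 ratio of E14.5 to E11.5 was 0.998 over the 10 genes and -0.01 over all genes tested.

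Ptbp1, the repressor of neuronal exons, lies at chr10:79854432-79864435 on the plus strand (GRCm38, as are all gene positions here). It had 72.9, 79.7 and 61.0 FPKM in E14.5 females and 64.9, 65.7 and 55.9 FPKM in E14.5 males. It had 104, 112 and 114 FPKM in E11.5 females and 108, 108 and 114 FPKM in E11.5 males. Every E14.5 library was below every E11.5 library, and replicate 3 was the lowest E14.5 library of each sex. The log2 ratio of E14.5 to E11.5 was -0.68 ± 0.06 (SE, edgeR's quasi-likelihood test, adjusted p = 7.64e-08), that is 1.60-fold lower at E14.5. The span of Ptbp1 shares 3961 bases with Plppr3 on the other strand, which had 1690 to 7066 counts per library. Whether the counting used strand is not given in the sources used here.

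Ptbp2, the paralog that takes over in new neurons, lies at chr3:119718742-119783388 on the minus strand. It had 111, 118 and 105 FPKM in E14.5 females and 138, 134 and 123 FPKM in E14.5 males. It had 147, 143 and 143 FPKM in E11.5 females and 129.7, 131 and 121 FPKM in E11.5 males. Every E14.5 female was below every E11.5 female, the males of both ages overlapped in FPKM, and the ages overlapped with the sexes together. In normalized counts, which were the values tested, every E14.5 male was above every E11.5 male. FPKM is scaled to a different library total, described with the processing. The log2 ratio over both sexes was -0.11 ± 0.04 (adjusted p = 0.0123 in edgeR's test), which does not reach the fold threshold. It was -0.36 (95% confidence interval -0.47 to -0.25) in females and 0.14 (0.03 to 0.25) in males. With a correction for transcript GC content and length, described further on, it was -0.20 in females and -0.10 in males. The corrected male value did not pass (edgeR, adjusted p = 0.0982). In that fit the median of all genes was -0.11 in females and -0.13 in males. Ptbp2 lay below that median in females and above it in males.

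Within the family, the balance between the paralogs differed between the ages. The ratio of Ptbp2 to Ptbp1 in FPKM was 1.52, 1.48 and 1.73 in E14.5 females and 2.12, 2.04 and 2.20 in E14.5 males, against 1.41, 1.27 and 1.25 in E11.5 females and 1.20, 1.21 and 1.06 in E11.5 males. All E14.5 libraries were above all E11.5 libraries. These ratios are not corrected for GC content, which is 41.9% for Ptbp2 and 56.4% for Ptbp1. After the GC content and length correction the log2 ratio of E14.5 to E11.5 was -0.15 for Ptbp2 and -0.81 for Ptbp1. The corrected ratio of female to male at E14.5 was 0.031 for Ptbp2 and -0.12 for Ptbp1. Ptbp1 made up 33.6% of the summed FPKM of Ptbp1, Ptbp2 and Ptbp3 at E14.5 and 42.2% at E11.5 (means of 6 libraries). Ptbp2 made up 61.1% at E14.5 and 51.9% at E11.5. The sum of the 3 genes was 199 FPKM at E14.5 and 261 FPKM at E11.5. Ptbp3, the paralog best known from blood cells, averaged 84.7 ± 12.7 CPM at E14.5 and 119 ± 6.42 CPM at E11.5 (SD, n = 6 each), where CPM is the count scaled to the normalized library total. Its log2 ratio was -0.50 (adjusted p = 5.99e-08, edgeR's quasi-likelihood test), just past the fold threshold.

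Srrm4, the activator of short neuronal exons, lies at chr5:116439273-116591817 on the minus strand. It had 19.0, 19.3 and 21.6 FPKM in E14.5 females and 14.4, 14.7 and 17.1 FPKM in E14.5 males, against 8.37, 9.04 and 8.50 FPKM in E11.5 females and 9.23, 9.60 and 8.46 FPKM in E11.5 males. The lowest E14.5 library was above the highest E11.5 library. The log2 ratio of E14.5 to E11.5 was 1.04 ± 0.05 (edgeR, adjusted p = 4.21e-10), a 2.05-fold higher level at E14.5. Srrm3, the related activator of short exons, rose by a log2 ratio of 1.44 (adjusted p = 1.44e-09 in edgeR's test). The general splicing coactivators Srrm1 and Srrm2 were not called, with log2 ratios of -0.37 and 0.01. After the GC content and length correction both were called lower, at -0.56 and -0.51, where the median of all genes was -0.12.

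The NOVA proteins, which bind clusters of YCAY elements in pre-mRNA, are encoded by Nova1 (chr12:46697898-46818767, minus strand) and Nova2 (chr7:18925888-18965319, plus strand). Nova2, which is known for its expression in the neocortex, had 19.2, 19.8 and 22.8 FPKM in E14.5 females and 15.5, 15.2 and 18.4 FPKM in E14.5 males. It had 10.7, 11.1 and 10.8 FPKM in E11.5 females and 10.7, 11.7 and 10.6 FPKM in E11.5 males. The ages did not overlap, and the log2 ratio of E14.5 to E11.5 was 0.80 ± 0.06 (edgeR, adjusted p = 1.36e-08). Nova1, best known from the hindbrain and spinal cord, had 12.3, 12.8 and 10.999 FPKM in E14.5 females and 13.4, 13.3 and 12.1 FPKM in E14.5 males. It had 9.59, 11.03 and 10.8 FPKM in E11.5 females and 9.78, 10.5 and 8.74 FPKM in E11.5 males. The ages of Nova1 were apart in normalized counts, with a log2 ratio of 0.36 ± 0.05 (edgeR, adjusted p = 1.50e-05) that stayed under the fold threshold. Nova2 made up 59.4% of the summed FPKM of the pair at E14.5 and 52.1% at E11.5, with overlapping ranges. Its share was 63.1% in E14.5 females and 51.0% in E11.5 females, and 55.8% in E14.5 males and 53.2% in E11.5 males. These shares are not corrected for GC content, which is 56.3% for Nova2 and 38.5% for Nova1. After the GC content and length correction the log2 ratio of E14.5 to E11.5 was 0.27 for Nova2 and 0.24 for Nova1. The corrected ratio of female to male at E14.5 was 0.087 for Nova2 and 0.32 for Nova1.

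The RBFOX proteins bind the element UGCAUG and act on exons by their position. Rbfox1 (chr16:5884793-7412480, plus strand), which is also a cytoplasmic regulator of mRNAs in neurons, showed the largest log2 ratio among the 10 genes. It had 4.999, 4.79 and 7.49 FPKM in E14.5 females and 5.74, 5.80 and 8.14 FPKM in E14.5 males. It had 0.56, 0.56 and 0.40 FPKM in E11.5 females and 0.59, 0.64 and 0.44 FPKM in E11.5 males, which rested on 76 to 136 counts per library. Replicate 3 was highest in both sexes at E14.5 and lowest in both at E11.5. The log2 ratio was 3.59 ± 0.17 (edgeR's test, adjusted p = 3.88e-09), a 12.01-fold higher level at E14.5.

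Rbfox3 (chr11:118489760-118911597, minus strand) encodes the antigen of the NeuN antibody, a marker of maturing neurons. It had 9.61, 8.51 and 10.2 FPKM in E14.5 females and 6.01, 6.29 and 6.75 FPKM in E14.5 males. It had 1.21, 1.41 and 1.32 FPKM in E11.5 females and 1.57, 1.59 and 1.51 FPKM in E11.5 males. The log2 ratio of E14.5 to E11.5 was 2.49 ± 0.06 (edgeR, adjusted p = 5.28e-13), a 5.61-fold higher level. The females were the higher sex at E14.5, with no overlap of the sexes, as in 49.7% of all genes tested. They were the lower sex at E11.5, a difference that was not called. After the GC content and length correction the ratio of female to male was 0.19 at E14.5 and -0.07 at E11.5 (edgeR, adjusted p = 0.786). Neither was called.

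Rbfox2 (chr15:77078990-77307053, minus strand), the member of the family that progenitors and non-neural tissues also use, was the most abundant of them at both ages. It had 47.8, 46.4 and 56.5 FPKM in E14.5 females and 48.7, 48.1 and 56.8 FPKM in E14.5 males, against 20.9, 21.3 and 19.7 FPKM in E11.5 females and 22.8, 23.0 and 21.4 FPKM in E11.5 males. The log2 ratio was 1.29 ± 0.06 (edgeR, adjusted p = 1.16e-10). Rbfox2 made up 78.4% of the summed FPKM of the 3 genes at E14.5 and 91.6% at E11.5. Rbfox1 made up 9.44% at E14.5 and 2.25% at E11.5, and Rbfox3 12.2% at E14.5 and 6.10% at E11.5. The sum was 64.8 ± 6.44 FPKM at E14.5 and 23.5 ± 1.43 FPKM at E11.5 (SD, n = 6 each). The share of Rbfox2 was thus lower at E14.5, with no overlap of the ages, while its own level was higher.

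Elavl3 and Elavl4 encode the neuronal proteins HuC and HuD, which stabilize mRNAs that hold AU-rich elements and also act on splicing. Elavl3 (chr9:22015005-22052023, minus strand) had 94.1, 86.9 and 100.1 FPKM in E14.5 females and 61.4, 59.6 and 72.0 FPKM in E14.5 males. It had 31.4, 37.5 and 32.3 FPKM in E11.5 females and 37.6, 40.8 and 35.0 FPKM in E11.5 males. The ages did not overlap, and the females were apart from the males at E14.5, as in 49.7% of all genes tested. The log2 ratio of E14.5 to E11.5 was 1.17 ± 0.06 (edgeR, adjusted p = 9.50e-10). Elavl4 (chr4:110203737-110351911, minus strand) had 40.8, 41.3 and 47.6 FPKM in E14.5 females and 44.4, 42.4 and 45.6 FPKM in E14.5 males, against 25.0, 22.5 and 22.7 FPKM in E11.5 females and 23.9, 23.4 and 22.5 FPKM in E11.5 males. Its log2 ratio was 0.96 ± 0.05 (edgeR, adjusted p = 1.31e-10).

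The other ELAVL genes set the frame for these values. Elavl1, which encodes the ubiquitous HuR, averaged 190 ± 8.15 CPM at E14.5 and 204 ± 16.3 CPM at E11.5 (SD, n = 6 each) and was not called, with a log2 ratio of -0.09. Elavl2, the neuronal HuB, rose by a log2 ratio of 0.93 (edgeR, adjusted p = 2.26e-08). Elavl3 made up 39.6% of the summed FPKM of the 4 ELAVL genes at E14.5 and 31.1% at E11.5, with overlapping ranges of 33.3% to 45.9% at E14.5 and 27.0% to 34.1% at E11.5. Its share was 44.7% in E14.5 females and 29.5% in E11.5 females, against 34.5% in E14.5 males and 32.6% in E11.5 males. These shares are not corrected for GC content. After the GC content and length correction the log2 ratio of female to male at E14.5 was 0.34 for Elavl3 and 0.41 for Elavl4. For Elavl1 the corrected ratio was 0.29 and for Elavl2 0.15. Elavl1 made up 13.6% at E14.5 and 25.8% at E11.5, with no overlap. The share of Elavl4 was 22.2% at E14.5 and 20.3% at E11.5, with overlapping ranges.

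**Figure D2:**
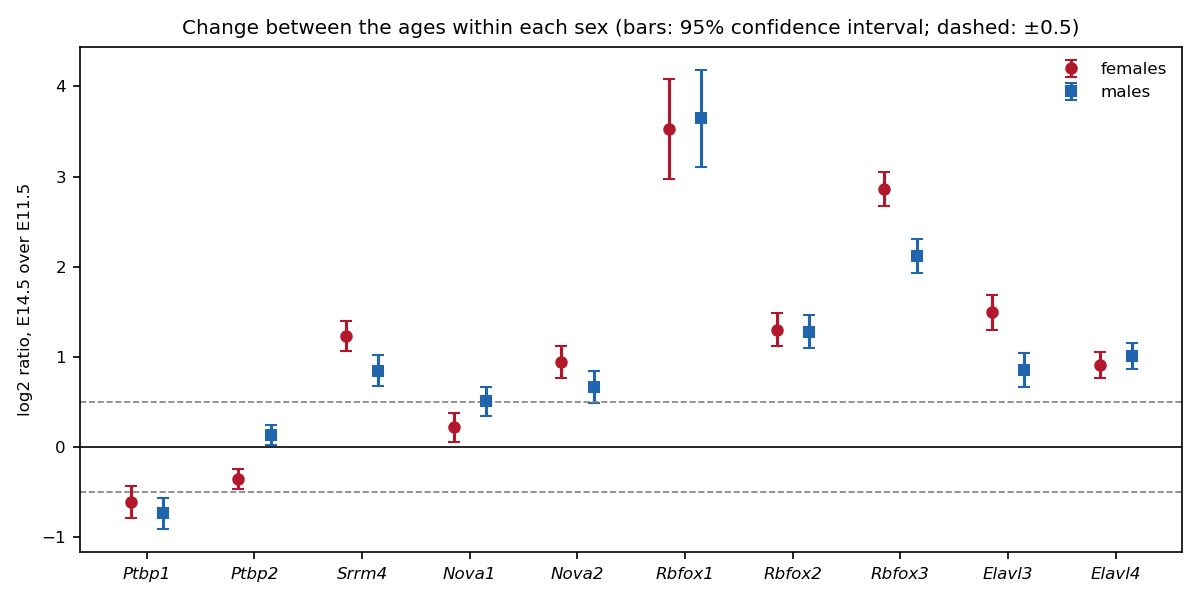
Log2 ratio of E14.5 to E11.5 of each gene (horizontal axis), fitted within females (circles) and within males (squares), with 95% confidence intervals as bars and the fold threshold of ±0.5 as dashed lines. Rbfox1 stands at 3.53 in females and 3.64 in males, and Ptbp1 at -0.61 in females and -0.74 in males. Ptbp2 lies on opposite sides of 0. Once GC content and length were corrected for, Ptbp2 was below 0 in both sexes, as was the median of all genes.

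Fitted within each sex, 8 of the 10 genes were called between the ages in females, where 44.6% of all genes tested were, and 9 in males, where 45.0% were. Ptbp1 was lower at E14.5 in both sexes, by log2 ratios of -0.61 in females and -0.74 in males. The gene called in males alone was Nova1, with a log2 ratio of 0.50 against 0.22 in females, at the edge of the fold threshold. After the GC content and length correction its ratio was 0.12 in males (edgeR, adjusted p = 0.222) and 0.35 in females (adjusted p = 0.00236). Nova1 was then called in neither sex. Nova2 also came under the fold threshold, at 0.31 in males and 0.22 in females, and Srrm4 did so in males, at 0.47.

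The transcripts of the 10 genes differ in GC content, from 38.3% in Elavl4 and 38.5% in Nova1 to 58.5% in Rbfox3, and the fit was repeated with offsets that correct for transcript GC content and length. It moved the median age log2 ratio of all genes to -0.12, from which the corrected ratios should be read. The corrected ratio was -0.81 for Ptbp1, 0.61 for Srrm4, 3.21 for Rbfox1, 0.77 for Rbfox2, 2.09 for Rbfox3, 0.86 for Elavl3 and 0.79 for Elavl4, all of which remained called. For Nova2 it was 0.27, under the fold threshold, so that 7 of the 10 genes were called, against 44.8% of all genes tested.

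At E14.5 the sexes differed in 2 of the 10 genes by the call, where 11.6% of all genes tested were called and 5.98% were called higher in females. Rbfox3 was higher in females, at 54.1 ± 5.40 CPM in females and 37.3 ± 2.44 CPM in males (SD, n = 3 each), with a log2 ratio of 0.53 ± 0.08 (edgeR, adjusted p = 6.32e-05). Elavl3 was higher in females, at 548 ± 44.3 CPM in females and 386 ± 42.5 CPM in males, with a log2 ratio of 0.50 ± 0.09 (edgeR, adjusted p = 4.36e-04), so close to the threshold that other settings lost the call. A further 3 genes passed at the adjusted p alone, as 45.4% of all genes did. They were Srrm4 with a log2 ratio of 0.33 (edgeR's adjusted p = 0.00252), Nova2 with 0.29 (adjusted p = 0.00945) and Ptbp2, lower in females, with -0.28 (adjusted p = 5.22e-04).

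The remaining 5 genes at E14.5 had log2 ratios of female to male of 0.16 for Ptbp1 (95% confidence interval -0.02 to 0.33), -0.06 for Rbfox2 (-0.24 to 0.11), -0.07 for Elavl4 (-0.21 to 0.08), -0.14 for Nova1 (-0.30 to 0.02) and -0.23 for Rbfox1 (-0.65 to 0.20). Rbfox1 had the widest interval. The sexes were apart in the libraries of 4 genes, Ptbp2, Srrm4, Rbfox3 and Elavl3, which is near the share of 49.7% among all genes tested.

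These differences moved with GC content. The 3 genes of lowest GC content (Elavl4, Nova1 and Ptbp2 at 38.3% to 41.9%) had negative log2 ratios, and the 5 of highest GC content (Srrm4, Elavl3, Nova2, Ptbp1 and Rbfox3 at 52.2% to 58.5%) had positive ones. After the correction none of the 10 genes was called at E14.5 in edgeR's test, where 2.41% of all genes were called. The count was 5 at the adjusted p alone, where 21.8% of all genes passed, and the same 5 at an unadjusted p under 0.05, where 34.2% did. The corrected log2 ratio was 0.19 for Rbfox3 (edgeR, adjusted p = 0.0496), 0.34 for Elavl3 (adjusted p = 0.00199) and 0.31 for Srrm4 (adjusted p = 2.50e-04). The signs of Elavl4, at 0.41 (adjusted p = 3.41e-05), and Nova1, at 0.32 (adjusted p = 0.0193), turned, and Ptbp2 came to 0.031 (adjusted p = 0.723). Signs also turned for Ptbp1, at -0.12 (adjusted p = 0.330), and Rbfox2, at 0.047 (adjusted p = 0.521), neither of which passed in either fit. Without E14.5 male replicate 1 or E14.5 female replicate 3 neither Rbfox3 nor Elavl3 was called, with log2 ratios of 0.49 and 0.46 for Rbfox3 and 0.47 and 0.44 for Elavl3. Without E14.5 male replicate 2 the call of Elavl3 was lost, at 0.45. The part of GC content in the differences between the sexes was not tested beyond this correction.

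**Figure D3:**
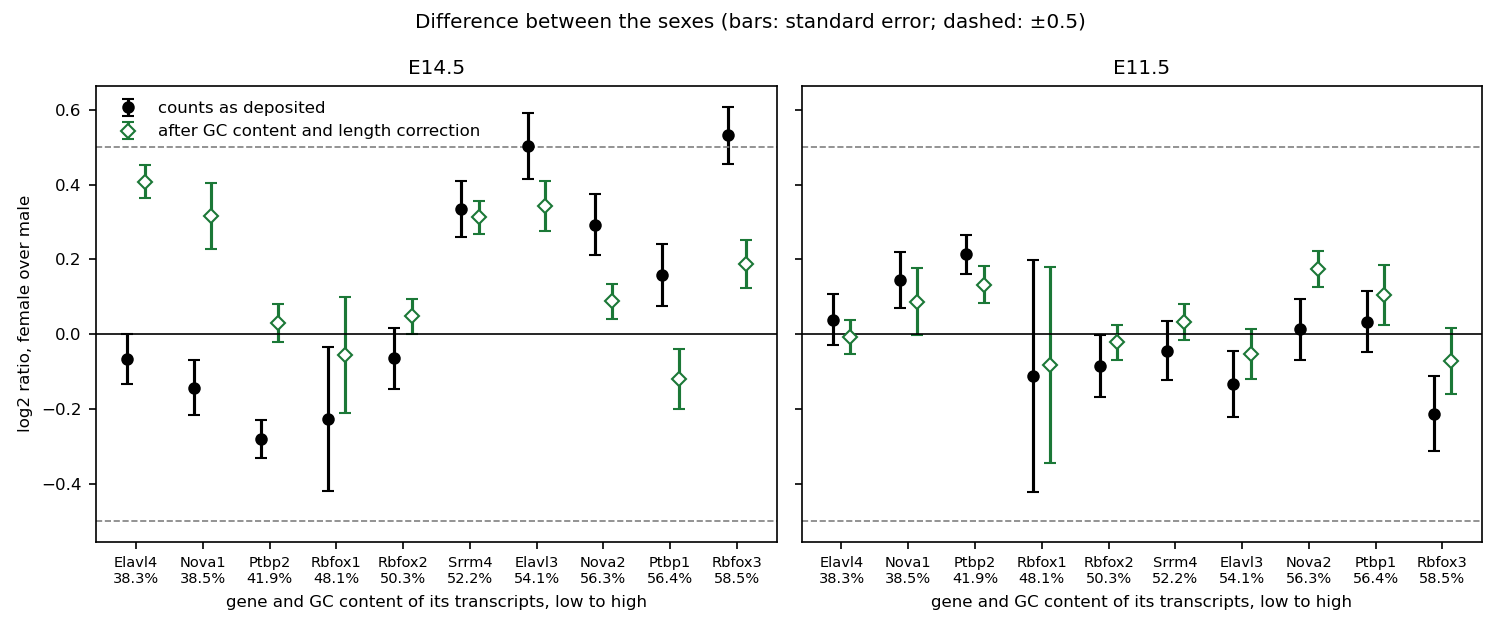
Log2 ratio of female to male for each gene at E14.5 (left) and E11.5 (right), ordered by the GC content of the transcripts, from the counts as deposited (filled circles) and after the GC content and length correction (open diamonds), with standard errors as bars and ±0.5 as dashed lines. At E14.5 the filled points run from negative values at low GC content to 0.53 for Rbfox3 at 58.5%, and all corrected points lie under 0.5.

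At E11.5 none of the 10 genes was called between the sexes in edgeR's test, where 0.374% of all genes tested were called. At an unadjusted p under 0.05 and at the adjusted p alone the count was 1, Ptbp2, where 18.2% and 2.14% of all genes passed, and the DESeq2 Wald test also gave 1 at the adjusted p alone and none by the full call. Ptbp2 averaged 557 ± 10.3 CPM in females and 480.4 ± 16.5 CPM in males (SD, n = 3 each), with a log2 ratio of 0.21 ± 0.05 (edgeR, adjusted p = 0.0481). The adjusted p lay between 0.0252 and 0.175 when single libraries were left out, and the ratio after the GC content correction was 0.13 (adjusted p = 0.261). The ratios of the other genes ran from -0.21 for Rbfox3 to 0.14 for Nova1.

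The change of the sex ratio from E11.5 to E14.5 passed the interaction test of edgeR in 5 of the 10 genes, and in 39.1% of all genes tested (20.6% positive and 18.5% negative). It was positive for Rbfox3, at 0.75 ± 0.13 (adjusted p = 3.76e-04), for Elavl3, at 0.64 ± 0.13 (adjusted p = 0.00142), and for Srrm4, at 0.38 ± 0.11 (adjusted p = 0.0135). It was negative for Ptbp2, at -0.49 ± 0.07 (adjusted p = 1.37e-04), and for Nova1, at -0.29 ± 0.11 (adjusted p = 0.0438). In Ptbp2 the female libraries were the lower ones at E14.5 and the higher ones at E11.5. After the GC content and length correction its ratio of female to male was 0.031 at E14.5 and 0.13 at E11.5. With the replicate number as a block Nova2 also passed, at 0.28 (edgeR's adjusted p = 0.0371, against 0.0706 without the block). That block joins embryos of different mothers across the ages and splits the E14.5 embryos of the first mother. It is thus not a block for mothers, and the added pass of Nova2 should be read with that limit. After the GC content and length correction the genes that passed were Srrm4 at 0.28, Elavl3 at 0.40 and Elavl4 at 0.42, against 11.1% of all genes, and Nova2 came to -0.086 (adjusted p = 0.471).

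The embryos of the second E14.5 mother, replicate 3 of each sex, stood apart from replicates 1 and 2. All 10 genes differed from the mean of replicates 1 and 2 in the same direction in both sexes, 7 higher and 3 lower, where 39.0% of all genes tested were higher in both sexes and 35.0% lower in both. The lower ones were Ptbp1, Ptbp2 and Nova1. Rbfox1 was higher by 0.65 on the log2 CPM scale in females and by 0.51 in males, while replicates 1 and 2 differed by 0.04 in females and 0.03 in males. Ptbp1 differed by -0.28 in females and -0.21 in males, with gaps between replicates 1 and 2 of 0.15 and 0.03.

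Markers of neurons moved with replicate 3. Of 12 neuron markers, 9 were higher in replicate 3 in both sexes, and of 12 markers of radial glia, 9 were lower in both. The part of cell composition in these differences was not tested. Without the 2 embryos of this mother the age comparison still called 8 of the 10 genes, with log2 ratios of 3.37 for Rbfox1, 2.43 for Rbfox3 and -0.60 for Ptbp1.

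**Figure D4:**
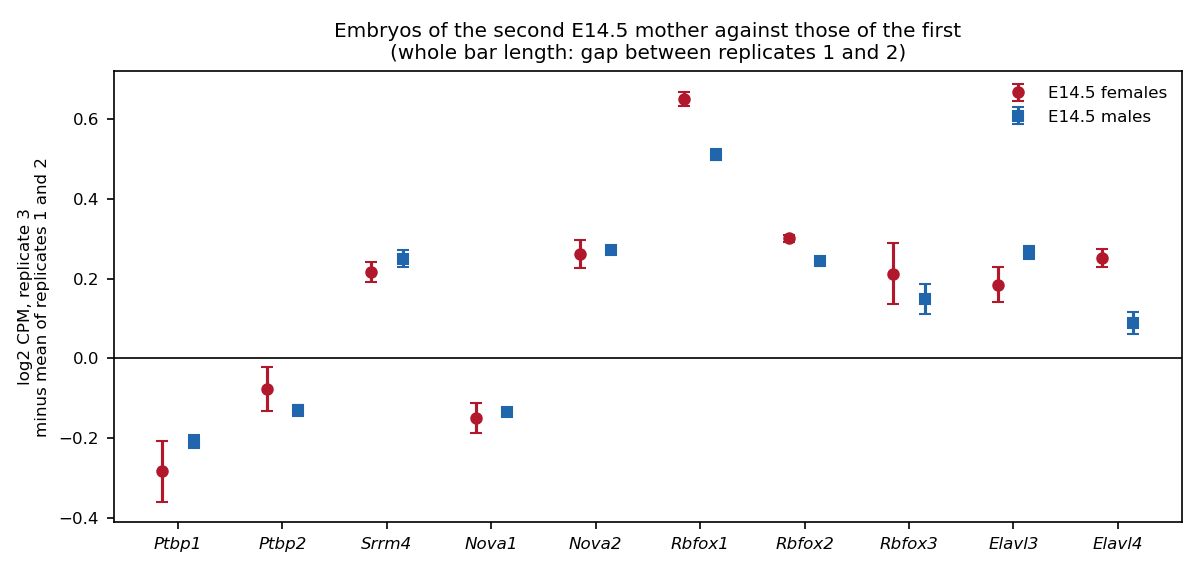
Log2 CPM of replicate 3 minus the mean of replicates 1 and 2 for each gene at E14.5, in females (circles) and males (squares). The whole length of each bar is the gap between replicates 1 and 2. Rbfox1 lies at 0.65 and 0.51, and Ptbp1, Ptbp2 and Nova1 lie below 0 in both sexes.

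Cell type markers moved with age as well, in a comparison where 24.4% of all genes tested were called higher and 19.0% lower. All 12 neuron markers, such as Tubb3, Dcx and Stmn2, rose with a median log2 ratio of 1.60, and their summed level was 6158 to 7820.5 CPM at E14.5 and 2077 to 2556 CPM at E11.5. Of 12 radial glia markers 7 fell and 2 rose, with a median of -0.57 and sums of 2627 to 3134 CPM at E14.5 and 3751 to 3951 CPM at E11.5. Of 6 intermediate progenitor markers 3 rose and 1 fell, with sums of 613 to 755 CPM at E14.5 and 396 to 435 CPM at E11.5. Of 9 erythroid genes tested 7 fell and 1 rose, with sums of 871 to 1260.2 CPM at E14.5 and 4603 to 8138 CPM at E11.5. Of 8 mesenchyme markers 7 fell and 1 rose, with sums of 539 to 764 CPM at E14.5 and 1018 to 1286 CPM at E11.5. The 7 endothelial markers (1 called, higher) and the 6 markers of microglia and macrophages (2 higher, 1 lower) had sums of 217 to 291 CPM and of 39.6 to 59.7 CPM at E14.5, against 270.2 to 313 CPM and 32.5 to 35.9 CPM at E11.5. Skeletal muscle markers summed to at most 2.33 CPM at E14.5 and 3.21 CPM at E11.5, with Myf5 and Myog at 0 counts in every library. The part of these cell types in the values of the 10 genes was not tested.

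Between the sexes at E14.5 the 12 neuron markers had sums of 6158 to 7305 CPM in females and 6649 to 7820.5 CPM in males. Their median log2 ratio of female to male was -0.04. Of the 12 radial glia markers 3 were called (Hes5, Sox9 and Notch1, all higher in females) and 9 were not, 6 of these with a negative log2 ratio, and the median over the 12 was 0.06. Of the 6 intermediate progenitor markers 2 were called (Neurog1 and Gadd45g, both higher in females), with a median of 0.24. The share of all genes called in this comparison was 11.6%.

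Other regulators of alternative splicing were taken as a list of 29 genes, of which 27 were tested. Between the ages 10 rose, 6 fell and 11 were not called, where 24.4% of all genes tested were called higher and 19.0% lower. The median log2 ratio of the list was 0.01. After the GC content and length correction Srrm1 (-0.56), Srrm2 (-0.51) and Msi2 (-0.72) were also called lower, and Rbm20 (0.20) was no longer called higher. The median of all genes was -0.12 in that fit. The regulators that rose most were genes of the CELF family, which bind GU-rich elements, and Khdrbs2, which encodes the STAR protein SLM1. Celf4 averaged 140 ± 12.8 CPM at E14.5 and 34.2 ± 3.28 CPM at E11.5 (SD, n = 6 each), with a log2 ratio of 2.03 (edgeR, adjusted p = 5.33e-13). The log2 ratio was 1.84 for Celf5, 1.57 for Khdrbs2 and 1.47 for Celf2. Celf1, which most tissues express, was not called, at -0.10.

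The regulators that fell were led by Mbnl3, the muscleblind gene of undifferentiated cells, at 12.1 ± 2.77 CPM at E14.5 and 28.7 ± 2.86 CPM at E11.5 (SD, n = 6 each), a log2 ratio of -1.26 (edgeR, adjusted p = 2.61e-08). Rbm38, a p53 target that binds mRNA, had a log2 ratio of -1.15. Raver2 and Raver1, which encode proteins that bind PTBP1 as corepressors, had -0.83 and -0.69. Without the GC content and length correction Raver1 was called between the ages in males alone, at -1.12, against -0.25 in females. After it Raver1 was called lower in both sexes, at -1.26 in males and -0.95 in females. The corrected change of its sex ratio with age was 0.31 (edgeR, adjusted p = 0.0510). At E14.5 Raver1 was called higher in females, with a log2 ratio of 0.92, and of 0.52 after the GC content and length correction. Qk, which encodes the Quaking proteins of glia and progenitors, and Ptbp3 completed the 6. Esrp1 and Esrp2, the splicing regulators of epithelial cells, had at most 13 counts in any library and were not tested.

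**Figure D5:**
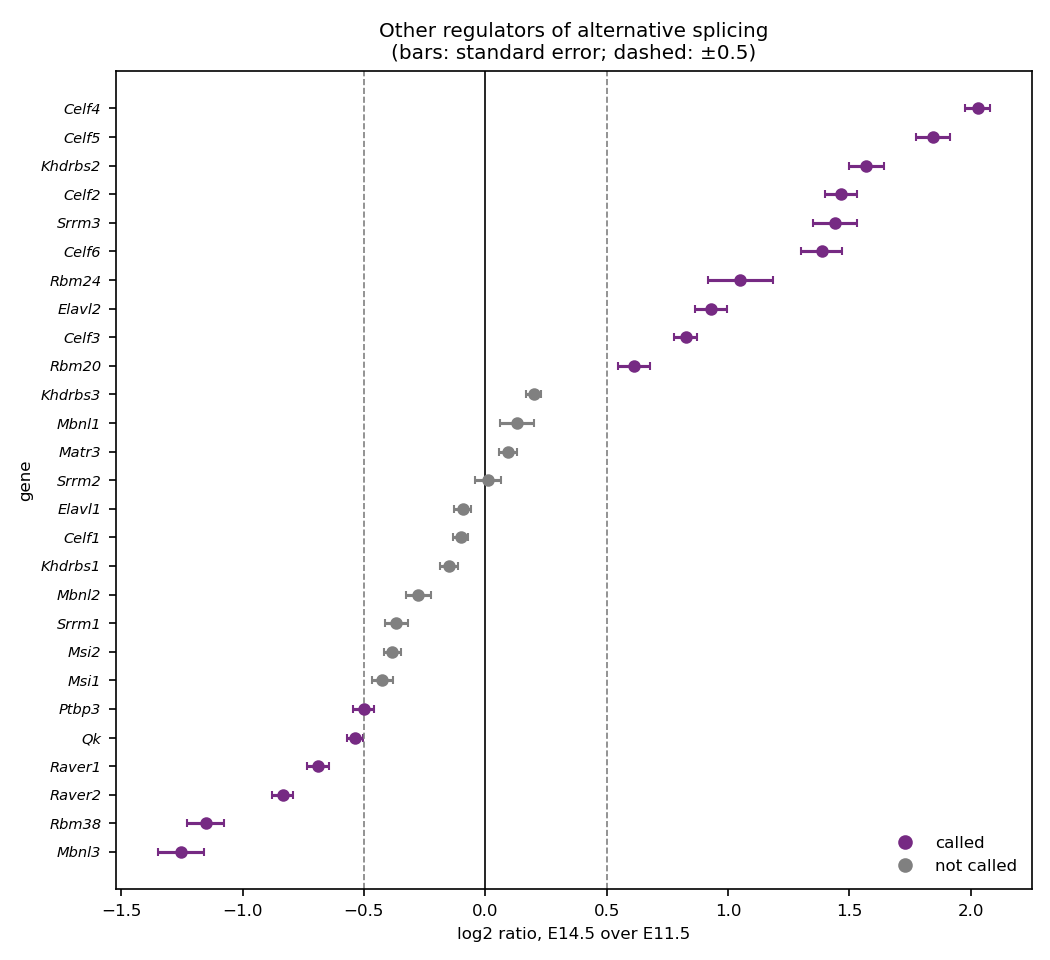
Log2 ratio of E14.5 to E11.5 (horizontal axis) of the 27 tested genes of the list of other splicing regulators, in order of the ratio, with standard errors as bars and ±0.5 as dashed lines. Called genes are purple, 10 to the right and 6 to the left of 0, from Celf4 at 2.03 to Mbnl3 at -1.26.

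Genes with exons known as targets of these proteins were listed as 25 genes, all tested. At the level of the whole gene 14 rose, 2 fell and 9 were not called, where 24.4% of all genes tested were called higher and 19.0% lower. The median log2 ratio of the list was 0.59. After the GC content and length correction Flna (-0.80) and Rest (-0.63), both of this list, were also called lower. The median of all genes was -0.12 in that fit, and the counts of the list were not retaken in it. Among the genes that rose were the axon guidance receptor Robo2, with a log2 ratio of 2.21, the calcium channel gene Cacna1c at 2.15 and the scaffold gene Ank3 at 1.63. Dlg4, which encodes the synaptic scaffold PSD-95 and is a known target of PTBP1 and PTBP2, had 1.32 (edgeR, adjusted p = 3.32e-12). The genes called lower without the correction were Bak1, a promoter of apoptosis, at -1.03, and Numb, a Notch antagonist, at -0.57. Changes in exon use within these genes were not measured.

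In the circuit of REST and miR-124, which acts upstream of Ptbp1 and Srrm4, 22 names were listed, 18 were in the table and 12 had enough counts to be tested. Mir124a-1hg, a host transcript of miR-124, rose to 144 ± 30.0 CPM at E14.5, against 26.7 ± 1.05 CPM at E11.5 (SD, n = 6 each), a log2 ratio of 2.41 (edgeR, adjusted p = 1.59e-12). The other host transcript tested, Mir124-2hg, was not called, at 5.63 ± 0.68 CPM at E14.5 and 6.76 ± 0.75 CPM at E11.5 and a log2 ratio of -0.27 (edgeR, adjusted p = 0.0244), nor was Mir9-3hg, a host transcript of miR-9, at -0.22. The mature microRNA was not measured by this library type, and 6 listed microRNA genes had 0 counts in every library. Rest, the repressor of neuronal genes in progenitors, had 23.4 ± 1.36 CPM at E14.5 and 32.8 ± 2.88 CPM at E11.5, with no overlap and a log2 ratio of -0.48 (edgeR, adjusted p = 3.11e-07) just short of the fold threshold. After the GC content and length correction Rest was called, at -0.63. Hdac1, the histone deacetylase of its corepressor complex, fell by 0.82 on the log2 scale, while its paralog Hdac2 was not called, at 0.15. The corepressor genes Rcor1, Rcor2 and Sin3a had ratios of -0.21, -0.15 and -0.38, and the phosphatase genes Ctdsp1, Ctdsp2 and Ctdspl had -0.46, -0.34 and -0.19.

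Several genes followed the pattern of single members closely across the 12 libraries. Among 11652 genes compared by the Pearson correlation of log2 CPM, Pola2 (r = 0.998), Gapdh (0.996) and Timeless (0.995) were most like Ptbp1. Pola2 and Timeless act in DNA replication and Gapdh in glycolysis. Dpysl5 (0.999), Mtss1 (0.997) and Ralgds (0.996) were most like Srrm4, and Sept5, Nsmf and Tubb2a (0.998, 0.998 and 0.997) most like Rbfox3. The libraries share age, mother and depth, and between 1030 and 1487 genes reached an r above 0.95 with each of these members, so the correlations are a description only.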

How the data were processed

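Poly(A) RNA of 12 telencephalons was sequenced as stranded paired-end libraries. The authors aligned the reads to GRCm38 (mm10) with STAR (2.6.0c per the submitters' processing notes) and used Genedata Profiler Genome to assign them to genes. The deposited table holds estimated counts and FPKM values per gene and library. The authors' estimated counts are not all whole (17.3% are not), and they were rounded for the tests. The deposited FPKM is a count divided by transcript length and scaled library size, checked within 1% for genes with at least 50 counts. How reads matching several genes were shared is not given in the sources used here.

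The 10 genes and all gene lists were chosen with earlier results of these data known. Counts were fitted in edgeR 4.0.16 (R 4.3.3, limma 3.58.1) with TMM scaling and robust quasi-likelihood dispersions, 4 groups in 1 fit with 8 residual degrees of freedom. A gene was tested where some group had a mean count of 16 or more. The interaction was called at the adjusted p alone. Differences over age are means of both sexes. DESeq2 was version 1.42.0. Tables and figures were made in Python 3.11.15, pandas 2.3.3, numpy 2.4.6, scipy 1.17.1 and matplotlib 3.10.9. The fitting code was tested on simulated data.

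The GC content and length correction fitted a loess surface (span 0.5) per library to each gene's log2 ratio against the library mean, with GC content known for 98.9% of genes, and entered as offsets. Named from each list were the 4 genes with the largest called log2 ratio in each direction, all tested genes of the REST and miR-124 list, and the 3 genes of highest correlation for Ptbp1, Srrm4 and Rbfox3 (mean count of at least 100). One gene that this rule names is not reported here. Any other gene was named with its values already seen. The alternatives tried were other scalings, tests, filters and thresholds, leaving out single libraries or the second E14.5 mother, and blocks for replicate number and mother. The mothers come from the study's table of embryos, which lists 3 at E11.5, where the technical validation text names 2 litters. Deviations from group means of same-age libraries correlated at 0.067 to 0.56 for the same mother and number, and at -0.421 to 0.035 for different mothers. A mother lies within 1 age and so could not be a block for the age comparison.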

Additional observations from a re-analysis of the deposited data

Results flagged for a closer look

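Of the 10 genes, 5 had a log2 ratio of female to male that differed between E14.5 and E11.5 by edgeR's interaction test, where 39.1% of all genes tested did. The change from E11.5 to E14.5 was 0.75 for Rbfox3, 0.64 for Elavl3, 0.38 for Srrm4, -0.49 for Ptbp2 and -0.29 for Nova1. In the fit corrected for GC content and length the change was 0.26 for Rbfox3 (edgeR, adjusted p = 0.144), 0.40 for Elavl3 (adjusted p = 0.0147), 0.28 for Srrm4 (adjusted p = 0.0131), -0.10 for Ptbp2 (adjusted p = 0.41) and 0.23 for Nova1 (adjusted p = 0.277).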

How the results depend on the processing

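Under the alternatives run at the same threshold, the age log2 ratios of the 10 genes kept their direction and their side of the threshold in 228 of 230 values, the exceptions being Nova2 at 0.27 under the GC content and length correction, whether or not the replicate block was added. With the threshold at an absolute log2 ratio above 1, 5 genes were called between the ages, a count given here without its share over all genes. Shares over all genes were taken only for the fit described above and for its GC content and length correction. The counts under other alternatives therefore show only how the calls of the 10 genes held. The replicate block, which does not follow the mothers at E14.5 or across the ages, left 8 genes called between the ages. It left 0 between the sexes at E11.5, 2 between the sexes at E14.5 and 6 for the change of the sex ratio, Nova2 being the addition. Between the sexes at E14.5 the count was 1 with DESeq2 size factors, upper quartile scaling, the DESeq2 Wald test or a mean count of at least 50, 0 under the GC content and length correction (also with the block added) or at an absolute log2 ratio above 1, and 5 at the adjusted p alone. At E11.5 it was 1 at the adjusted p alone. The change of the sex ratio passed in 3 genes under the GC content and length correction, and in 3 with the block added. Leaving out single libraries gave 8 calls between the ages and 0 between E11.5 sexes each time, 0 to 2 between E14.5 sexes and 4 to 6 for the change. Among results with an adjusted p under 0.05 in either fit, signs turned with the GC content and length correction, without and with the block, for Ptbp2 between the ages in males (-0.10 and -0.10), for Ptbp2 (0.031 and 0.031), Nova1 (0.32 and 0.32) and Elavl4 (0.41 and 0.41) between the sexes at E14.5, and for the change of the sex ratio in Nova1 (0.23 and 0.23) and Elavl4 (0.42 and 0.42). Among results that passed in neither, signs turned between the sexes at E14.5 for Ptbp1 (-0.12 and -0.12) and Rbfox2 (0.047 and 0.047), between the sexes at E11.5 for Srrm4 (0.032 and 0.032) and Elavl4 (-0.0080 and -0.0084), and for the change in Ptbp1 (-0.23 and -0.23), Nova2 (-0.086 and -0.085) and Rbfox1 (0.027 and 0.027). In males the median age log2 ratio of all genes was -0.13 under the correction, without and with the block. The cause of the turned signs was not tested. Nova1, called between the ages in males at 0.50, ranged from 0.12 to 0.57 and lost the call in 9 alternatives. Levels as normalized CPM per kilobase were higher than FPKM by more than 1 SD in 36 of 40 group means. With 3 embryos per group and 2 or 3 mothers per age, small differences between the sexes in Rbfox1, with 76 to 136 counts at E11.5, could not be resolved.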
